A study of Mus musculus with 8 samples.

Results

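The RNA of Gcn2 KO cells was compared with that of Gcn2 WT cells after both had spent 1 h in medium without leucine. All genes with a mean count of at least 30 over the 4 RNA-seq libraries were described, which took 12250 of the 55536 genes in the files. Of these, 10814 were protein-coding and 1436 were of another class or of none. At the limit, Aqp5 and Dapk1 just entered with a mean count of 30, while Mrc1 and Tubg2 stayed outside at 29.8. The cells were KRPC-A cells, a line from pancreatic tumours of genetically engineered mice on a C57BL/6 background, which the labels call PDAC-like. The groups were Gcn2 KO in leucine-free medium and Gcn2 WT in leucine-free medium. Gcn2 KO and Gcn2 WT cells in amino-acid-replete medium for the same 1 h served as a second KO and WT pair, and footprint libraries of the leucine-free pair as another readout. Every group was 1 library. The sources used here say neither by what method Gcn2 was knocked out, nor from which exons, nor if the KO line is clonal. With 1 library a group no spread between cultures was measured, so no test across cultures was possible and no p-value is given.

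GCN2, encoded by Eif2ak4, is a protein kinase that is activated by uncharged transfer RNA when an amino acid runs short. Its substrate is the initiation factor eIF2alpha, and the phosphorylated form slows most translation but lets ATF4, a transcription factor, be made in larger amounts. ATF4 and its partner CHOP then raise the mRNAs of amino acid synthesis, amino acid transport and stress genes. Immediate early genes, such as the FOS, JUN and EGR families, are a separate group that growth factor signalling through ERK and stress kinases switches on within minutes, and their mRNAs are short-lived.

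Values are counts per 1000000 protein-coding reads (CPM), which are relative within a library, so fewer cells of a type and less RNA per cell cannot be told apart. CPM of different genes are not compared, because long genes collect more reads. Ratios are log2 of KO over WT, and the 95% intervals in parentheses are exact binomial ones that cover counting error only. A gene was called higher or lower when the ratio was at least 2-fold and the interval excluded a ratio of 0. The RNA-seq libraries held 49136610 counted reads in KO leucine-free and 60680169 in WT leucine-free cells, and 59132491 and 57455985 in KO and WT replete cells. Protein-coding genes took 63.8% of reads in the KO and 67.2% in the WT leucine-free library, and mitochondrial ribosomal RNA took 33.6% and 30.5%. The footprint libraries were smaller, with 4563018 counted footprints in KO and 2671491 in WT leucine-free cells, and their ratios are scaled for this. Of the markers of other cell types, all 14 acinar markers were below the mean count limit, and only Cd14 of 15 immune markers and Flt1 and Eng of 11 endothelial markers were above it. Eng alone of these was called, from 37 reads in KO and 14 in WT leucine-free cells, a ratio of 1.74. The duct genes Sox9, Krt8, Krt18 and Pdx1 were read in all 4 RNA-seq libraries, but Epcam, a defining epithelial surface marker, had 0 reads in each and Krt19, a defining duct keratin, had 25 reads or fewer.

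Eif2ak4 itself (ENSMUSG00000005102, chromosome 2, 118388618 to 118475234, plus strand, GRCm38) was low in the library labelled KO. It had 519 reads in KO leucine-free cells, against 2838 in WT leucine-free cells, or 16.6 CPM (15.2 to 18.1) against 70.2 CPM (67.6 to 72.8). The log2 ratio was -2.08 (-2.22 to -1.95), so 23.7% of the WT level remained in KO cells. In replete medium the KO and WT libraries held 522 and 3601 reads, a log2 ratio of -2.66. Reads from exons outside a deletion still count for the gene, so these counts do not show how much protein was made. None of the other 12 described genes listed around eIF2alpha was called, namely its kinases, phosphatase subunits, the GCN2 regulator Impact, eIF2alpha itself and subunits of its exchange factor eIF2B. The median of all 13 was -0.21.

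Without leucine, most immediate early genes were called higher in KO cells. The 15 highest protein-coding genes, ranked by the interval end nearest 0, also held genes barely read in WT cells, such as Igsf11 and Limch1. Of the 15 lowest, 10 had 3 reads or fewer in KO cells. Among protein-coding genes, 555 were called higher in KO cells (5.13%) and 350 lower (3.24%). Over all genes described the calls numbered 802 higher (6.55%) and 496 lower (4.05%). Genes of another class or of none were called more often, 247 of 1436 higher (17.2%) and 146 lower (10.2%). They were also read less, with a median mean count of 70.9 against 1388 for protein-coding genes. At a mean count of 30 to 100, 19.2% of them were called higher and 13.3% lower, against 21.9% and 14.6% of protein-coding genes. The middle 90% of log2 ratios ran from -0.89 to 1.16. Calls were more frequent among weakly read genes: of genes with a mean count of 30 to 100, 20.6% were called higher and 14% lower, while of those with 1000 to 10000 reads 1.84% and 0.761% were. The plot of ratio against level shows this funnel and the gene groups that stand outside it.

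**Figure D1:**
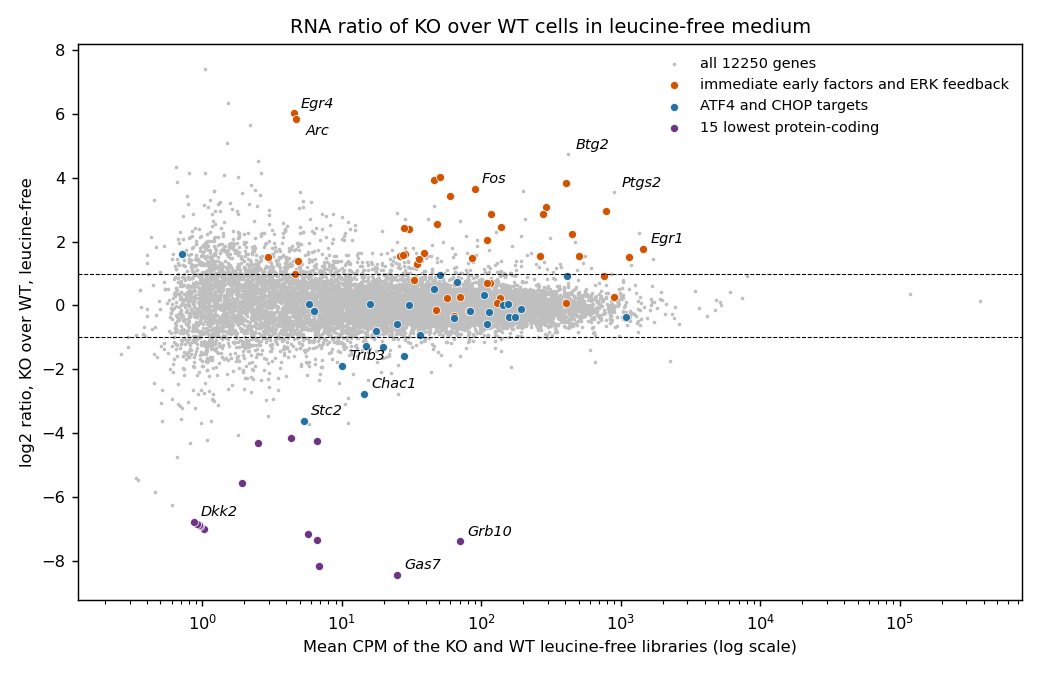
Log2 RNA ratio of KO over WT cells in leucine-free medium against the mean CPM of both libraries (log axis), 1 point per gene for all 12250 genes. Dashed lines mark 2-fold. Immediate early and ERK feedback genes are orange, and 22 of 25 and 8 of 20 of them were called above the upper line, with Fos at 3.66, while Btg2 is labelled at 4.74. Chac1 at -2.77 and Stc2 at -3.61 are low among ATF4 and CHOP targets (blue), and Grb10 at -7.38 and Gas7 at -8.44 lie among the 15 lowest protein-coding genes (purple). Ratios of genes with 0 reads in a library depend on the prior count.

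Immediate early transcription factors formed the group with the highest median ratio. Of the 27 listed genes, 25 were described, and Nr4a3 and Npas4 were too weakly read. Of the 25, 22 were called higher in KO cells and none lower, beside 5.13% of all protein-coding genes called higher. The median log2 ratio was 2.25, against -0.01 for all protein-coding genes, and all 25 were above 0. Those not called were Nr4a2 at 0.98, Srf at 0.71 and Myc at 0.27. The highest CPM of the 4 RNA-seq libraries stood in KO leucine-free cells for 24 of the 25, which was so for 25.9% of all protein-coding genes.

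Fos, a subunit of AP-1, had 166 CPM in KO and 13.1 CPM in WT leucine-free cells, and its log2 ratio was 3.66 (3.53 to 3.79). In replete medium Fos had 9.64 CPM in KO and 2.91 CPM in WT cells. The KO leucine-free library was thus the highest of the 4 by a wide margin, and the KO replete library was below WT leucine-free. Fosb, a relative of Fos, had 86.5 CPM in KO and 5.71 CPM in WT leucine-free cells, a ratio of 3.92 (3.73 to 4.12). Jun, the usual partner of Fos, had 516 CPM in KO and 61.2 CPM in WT leucine-free cells, and 65.0 and 38.1 CPM in KO and WT replete cells. Its ratio was 3.08 (3.01 to 3.14) without leucine and 0.77 in replete medium, where it was not called. Junb had 1386 CPM in KO and 176 CPM in WT leucine-free cells, with a ratio of 2.97 (2.94 to 3.01).

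The EGR zinc finger factors were called higher as well. Egr3 had 758 CPM in KO and 52.9 CPM in WT leucine-free cells, and 112 and 31.0 CPM in KO and WT replete cells, a leucine-free ratio of 3.84 (3.78 to 3.91). Egr1, the family member with the most reads, had 2242 CPM in KO and 651 CPM in WT leucine-free cells, a ratio of 1.78 (1.76 to 1.80). Egr4 had 278 reads in KO and 5 reads in WT leucine-free cells, a ratio of 6.03 (4.93 to 7.80). Arc, which encodes a cytoskeletal protein known from active neurons, had 291 reads in KO and 6 reads in WT leucine-free cells, a ratio of 5.86 (4.83 to 7.43). These low WT counts leave both intervals wide. Nr4a1, an orphan nuclear receptor, had 109 CPM in KO and 10.2 CPM in WT leucine-free cells, a ratio of 3.43 (3.28 to 3.58).

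Btg2 and Zfp36, which both act in mRNA decay, had ratios as high as the transcription factors. BTG2 is an antiproliferative protein that recruits deadenylases and is also a p53 target, and ZFP36 (tristetraprolin) binds AU-rich elements of short-lived mRNAs. Btg2 (ENSMUSG00000020423, chromosome 1, 134075170 to 134079120, minus strand, GRCm38) had 25232 reads in KO and 1219 reads in WT leucine-free cells, and 1216 and 612 reads in KO and WT replete cells. In CPM these were 806 and 30.1 without leucine and 31.7 and 14.6 in replete medium. Its leucine-free ratio of 4.74 (4.66 to 4.83), 26.7-fold, stood beside 1.12 in replete medium. Zfp36 had 366 CPM in KO and 30.2 CPM in WT leucine-free cells, a ratio of 3.60 (3.51 to 3.69), and 30.6 and 11.1 CPM in KO and WT replete cells. These were the only 2 called among the 8 described members of the ZFP36 and BTG/TOB families, whose median was 0.39. Of all protein-coding genes 5.13% were called higher. In replete medium the family median was 0.41 and 2 of the 8 were called higher, beside 4.32% of all protein-coding genes. The promoters of Btg2 and Zfp36 are shown because they hold letters of elements known from immediate early genes. They are the 250 bases before the RefSeq start site in GRCm38.p6, on the gene's own strand. Capitals mark the cyclic AMP response element TGACGTCA in Btg2, whose window is chr1:134079156-134079405 on the minus strand. In Zfp36, with chr7:28379229-28379478 on the minus strand, they mark a CArG box, the serum response element.
Btg2: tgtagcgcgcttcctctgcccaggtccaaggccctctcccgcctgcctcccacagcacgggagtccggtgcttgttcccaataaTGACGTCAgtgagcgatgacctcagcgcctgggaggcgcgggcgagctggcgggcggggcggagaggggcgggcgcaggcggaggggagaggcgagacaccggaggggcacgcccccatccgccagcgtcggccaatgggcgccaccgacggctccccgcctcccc
Zfp36: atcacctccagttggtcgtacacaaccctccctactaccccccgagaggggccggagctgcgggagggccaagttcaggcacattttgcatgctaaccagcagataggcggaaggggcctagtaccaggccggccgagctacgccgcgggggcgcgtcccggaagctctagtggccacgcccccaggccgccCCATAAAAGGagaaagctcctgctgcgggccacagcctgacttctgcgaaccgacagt

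Genes that damp ERK and MAP kinase signalling were split by family. Of the 20 described, 8 were called higher in KO cells and none lower, with a median of 0.75, against 0.37 in replete medium. The share called higher among all protein-coding genes was 5.13%. The called members were mostly dual-specificity phosphatases, which remove phosphate from MAP kinases. Dusp2 had 95.3 CPM in KO and 5.89 CPM in WT leucine-free cells, and 22.8 and 7.19 CPM in KO and WT replete cells, a leucine-free ratio of 4.01 (3.83 to 4.21). Dusp5 had 234 CPM in KO and 42.5 CPM in WT leucine-free cells, a ratio of 2.46 (2.39 to 2.54). Dusp1 had 47.0 CPM in KO and 8.73 CPM in WT leucine-free cells, a ratio of 2.43 (2.26 to 2.60), while its replete ratio was 0.04. Dusp6, the phosphatase most specific for ERK, was just under the limit at 0.93 (0.91 to 0.96). The Sprouty genes, which block receptor tyrosine kinase signalling, were not called, with Spry1 at -0.18, Spry2 at 0.27 and Spry4 at -0.14.

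Ptgs2 had the most reads in KO leucine-free cells of all genes with a log2 ratio of at least 3. Ptgs2, which encodes the inducible cyclooxygenase of prostaglandin synthesis, had 51599 reads in KO and 5727 reads in WT leucine-free cells, and 10960 and 4238 reads in KO and WT replete cells. Its ratio was 3.54 (3.50 to 3.58) without leucine and 1.5 in replete medium. Of 14 described cytokine, chemokine, EGF ligand and cyclooxygenase genes, 7 were called higher and 1 lower, with a median of 0.93. The shares over all protein-coding genes were 5.13% and 3.24%. In replete medium 4 were called higher and 2 lower, with a median of 0.74, beside 4.32% and 2.52% of all protein-coding genes. Among EGF receptor ligands without leucine, Areg stood at 2.37 (2.12 to 2.63), Hbegf at 2.18 (2.12 to 2.24) and Ereg at 1.73 (1.66 to 1.80), whereas Btc was lower at -1.12 (-1.61 to -0.66). Il11, an interleukin-6 family cytokine, had 150 reads in KO and 17 reads in WT leucine-free cells, a ratio of 3.47 (2.78 to 4.33). In replete medium Il11 had 9 reads in KO and 20 reads in WT cells, so the KO library was the lower one there. The 11 other genes listed, Il6 and Tnf among them, did not reach the mean count limit.

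Targets of the serum response factor SRF, of its actin-sensing partner MRTF and of YAP were also higher as a group. Of 19 described, 8 were called higher and none lower, with a median of 0.85, beside 5.13% of all protein-coding genes called higher. Their replete median was 0.47. Ccn1, a matrix-associated YAP target, had 2246 CPM in KO and 461 CPM in WT leucine-free cells, and 294 and 175 CPM in KO and WT replete cells, a leucine-free ratio of 2.28 (2.26 to 2.31). Ccn2, its relative, had 505 CPM in KO and 118 CPM in WT leucine-free cells, a ratio of 2.10 (2.05 to 2.15). Acta2, smooth muscle actin, had a ratio of 2.16 (2.07 to 2.26) without leucine and 2.10 in replete medium, so KO exceeded WT cells in both media alike. Of 12 described NF-kappaB subunits and inhibitors, 3 were called higher, with a median of 0.49, against 0.01 in replete medium. Nfkbie, an inhibitor of NF-kappaB, had 48 reads in KO and 3 reads in WT leucine-free cells. Tnfaip3, which encodes the feedback inhibitor A20, stood at 1.48 (1.35 to 1.61), and Nfkbiz at 1.36 (1.28 to 1.44).

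Cholesterol synthesis genes, which the SREBP factors control, were moderately higher. All 23 listed were described, 21 were above 0, 5 were called higher and none lower, and the median was 0.53. The share called higher among all protein-coding genes was 5.13%. In replete medium the median was 0.40, and 1 was called higher, beside 4.32% of all protein-coding genes. Hmgcs1, which makes HMG-CoA, had 262 CPM in KO and 71.2 CPM in WT leucine-free cells, and 114 and 78.7 CPM in KO and WT replete cells, a leucine-free ratio of 1.88 (1.82 to 1.94). Insig1, the sterol-regulated retention protein of the pathway, stood at 1.31 (1.27 to 1.35). Tm7sf2, a sterol reductase, stood at 1.38 (1.25 to 1.52) without leucine and 1.73 in replete medium. The plot of single genes by library sets these levels side by side.

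**Figure D2:**
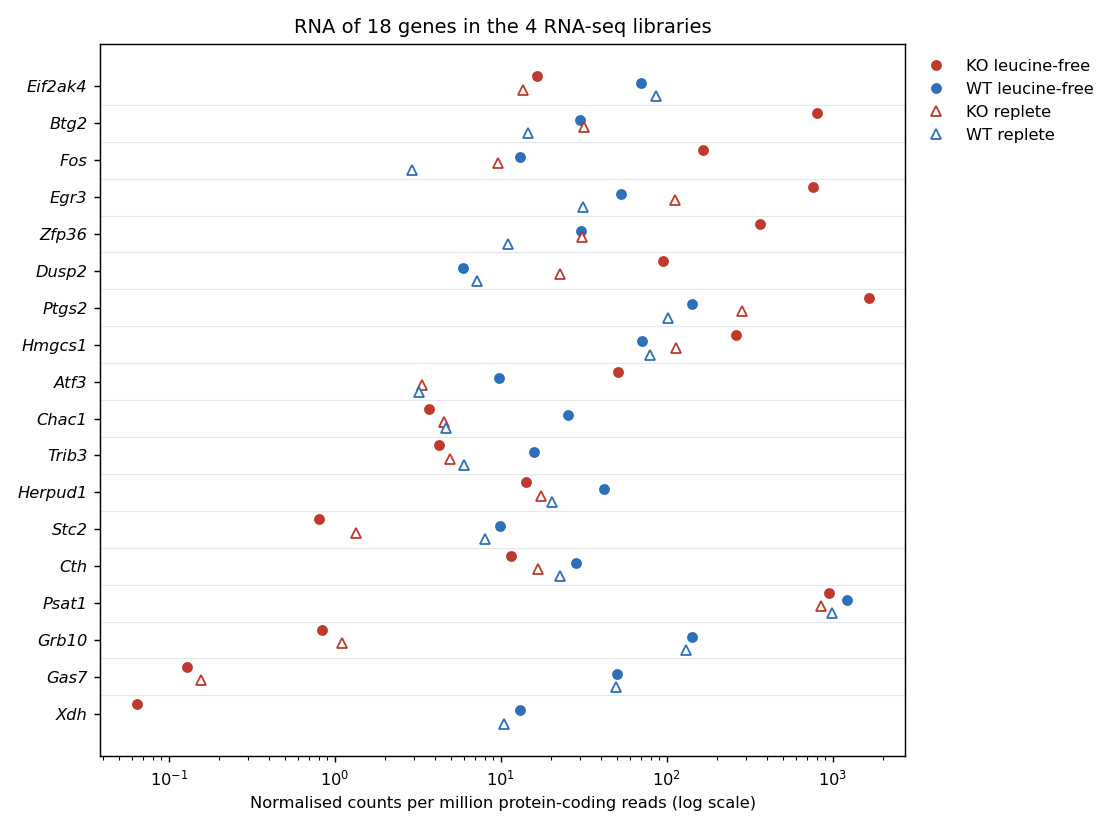
CPM (log axis) of 18 genes in each of the 4 RNA-seq libraries: KO leucine-free (red circles), WT leucine-free (blue circles), KO replete (red triangles) and WT replete (blue triangles). Each symbol is 1 library. From Btg2 to Hmgcs1 the KO leucine-free library stands right of the other 3, Chac1, Trib3 and Herpud1 stand furthest right in WT leucine-free cells, and Grb10, Gas7 and Xdh are near 0 in both KO libraries. Xdh had 0 reads in KO replete cells, so no symbol is drawn there.

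Targets of ATF4 and CHOP were mixed, and the ones called were mostly lower in KO cells. Of 16 described stress effectors, 4 were called lower and 1 higher, while the median was 0.04. Of 13 described genes of amino acid synthesis and one-carbon metabolism, 2 were called lower and none higher, 11 were below 0, and the median was -0.36. For comparison 3.24% of all protein-coding genes were called lower.

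Chac1 (ENSMUSG00000027313, chromosome 2, 119351229 to 119354381, plus strand, GRCm38) encodes a glutathione-degrading enzyme known as a sensitive ATF4 target. It had 116 reads in KO and 1024 reads in WT leucine-free cells, and 173 and 196 reads in KO and WT replete cells. Its ratio was -2.77 (-3.06 to -2.49) without leucine and -0.05 in replete medium. The WT leucine-free library thus stood apart, and the 3 others lay between 3.71 and 4.68 CPM. Trib3, a pseudokinase that binds ATF4 and AKT, had 133 reads in KO and 639 reads in WT leucine-free cells, and 189 and 251 reads in KO and WT replete cells. Its leucine-free ratio was -1.89 (-2.17 to -1.62). Herpud1, which acts in endoplasmic reticulum associated degradation, had 442 reads in KO and 1700 reads in WT leucine-free cells, and 667 and 850 reads in KO and WT replete cells, a leucine-free ratio of -1.57 (-1.73 to -1.42). Stc2, a secreted glycoprotein, differed in both media: it had 25 reads in KO and 401 reads in WT leucine-free cells, and 51 and 337 reads in KO and WT replete cells, with ratios of -3.61 and -2.59. Vldlr, a lipoprotein receptor, was called higher from 34 reads in KO and 14 reads in WT leucine-free cells.

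Among the amino acid synthesis genes, both that were called had ratios nearer 0 than Chac1, Trib3, Herpud1 and Stc2. Cth, which makes cysteine from cystathionine, had 11.4 CPM in KO and 28.3 CPM in WT leucine-free cells, a ratio of -1.30 (-1.48 to -1.13). Aldh1l2, a mitochondrial folate enzyme, had a ratio of -1.28 (-1.48 to -1.08) without leucine and -1.05 in replete medium. Asns, the asparagine synthetase, had 139 CPM in KO and 178 CPM in WT leucine-free cells, a ratio of -0.36 (-0.41 to -0.30) that was not called. Psat1 stood at -0.37 and Psph at -0.93, both enzymes of serine synthesis. Phgdh, the first enzyme of that pathway, stood on the other side at 0.93 (0.90 to 0.96), with 541 CPM in KO and 284 CPM in WT leucine-free cells, and 456 and 192 CPM in KO and WT replete cells.

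The RNA of the ATF4 and CHOP genes themselves was close between genotypes without leucine. Atf4 had 524 CPM in KO and 489 CPM in WT leucine-free cells, a ratio of 0.10 (0.07 to 0.13). In replete medium Atf4 was higher in KO cells, with 464 CPM against 261 CPM in WT cells, a ratio of 0.83 (0.79 to 0.86) that was not called. Ddit3, which encodes CHOP, had 6.36 CPM in KO and 7.79 CPM in WT leucine-free cells, a ratio of -0.29 (-0.56 to -0.03). Footprints of both stood lower in KO cells, with ratios of -1.30 for Atf4 and -1.77 for Ddit3. Of the 13 described genes listed as ATF4, CHOP and their partner factors, 2 were called higher and none lower. Atf3, itself also listed as an immediate early gene, led them. With scaling factors from all genes 1 of the 13 was called higher, and with a mean count of at least 100, 1 of 12. The share called higher among all protein-coding genes was 5.13%. Atf3 had 1592 reads in KO and 394 reads in WT leucine-free cells, and 129 and 134 reads in KO and WT replete cells, a leucine-free ratio of 2.38 (2.22 to 2.55). Chac1, Herpud1 and Atf3 share a stretch of letters before their start sites, which is why these 3 windows are shown. Capitals mark TGATGNAA, the ATF4 and C/EBP composite element, which lies here on the opposite strand and so reads TTGCATCA. The windows are the 250 bases before the RefSeq start site in GRCm38.p6, on the gene's own strand, at chr2:119350992-119351241 on the plus strand for Chac1, chr8:94386179-94386428 on the plus strand for Herpud1 and chr1:191183334-191183583 on the minus strand for Atf3.
Chac1: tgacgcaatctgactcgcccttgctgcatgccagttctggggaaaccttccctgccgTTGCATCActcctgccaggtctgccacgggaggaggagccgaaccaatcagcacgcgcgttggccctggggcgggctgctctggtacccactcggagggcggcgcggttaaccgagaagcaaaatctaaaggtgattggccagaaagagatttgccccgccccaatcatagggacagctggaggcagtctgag
Herpud1: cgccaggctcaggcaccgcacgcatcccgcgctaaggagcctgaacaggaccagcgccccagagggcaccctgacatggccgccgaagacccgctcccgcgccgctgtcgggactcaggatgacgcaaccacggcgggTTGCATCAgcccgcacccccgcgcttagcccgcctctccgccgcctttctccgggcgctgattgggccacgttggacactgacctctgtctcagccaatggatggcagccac
Atf3: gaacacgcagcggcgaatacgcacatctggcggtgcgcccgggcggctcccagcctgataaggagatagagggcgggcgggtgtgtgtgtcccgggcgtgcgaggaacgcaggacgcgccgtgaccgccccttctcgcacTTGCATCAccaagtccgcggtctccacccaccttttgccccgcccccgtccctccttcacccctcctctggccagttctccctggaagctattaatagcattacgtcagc

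These letters were counted over all promoters of the same length, on both strands. RefSeq windows were given for 8640 protein-coding genes described. TGATGNAA was found for 6 of the 24 ATF4 and CHOP targets with a window (25%), against 2.31% of all 8640. That list was made of known targets, so its share does not describe KO against WT cells. Among genes called in KO cells, TGATGNAA was found for 3.99% of those lower and 3.55% of those higher. TGACGTCA was found for 5.21% of genes called higher and 3.24% of all, for 3 of 16 ERK feedback genes and for 1 of 18 immediate early genes. The CArG box was found for 3.32% of genes called higher, 1.41% of all, and 2 of 18 immediate early genes. The letters TGANTCA, a loose form of the AP-1 site with any base at N, were found for 10.9% of genes called lower. They were found for 6.16% of those called higher, 5.03% of all and none of the 18 immediate early genes. Each of the 5 windows printed above held 1 match to these 4 motifs. A match is a description of the letters, not of binding.

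Of the transporters and synthetases of amino acids, many of which are also ATF4 targets, 1 was called higher and 1 lower. Of 19 described transporters, Slc1a3 was the only one called lower and Slc43a1 the only one called higher, and the median was 0.02. These shares are near those of all protein-coding genes, of which 5.13% were called higher and 3.24% lower. Slc1a3, a glutamate and aspartate carrier, had 344 reads in KO and 1608 reads in WT leucine-free cells, a ratio of -1.85 (-2.03 to -1.69), and stood at -1.58 in replete medium. Slc7a5, the leucine importer, had 381 CPM in KO and 583 CPM in WT leucine-free cells, a ratio of -0.61 (-0.64 to -0.58), and its partner chain Slc3a2 stood at -0.45 (-0.50 to -0.40). None of the 22 described cytosolic aminoacyl-tRNA synthetase genes was called, but 18 were below 0 and the median was -0.30. In 16 of the 22 (72.7%) the WT leucine-free library held the highest CPM of the 4, as it did for 26.4% of all protein-coding genes. Lars, which charges leucine, stood at -0.55 (-0.59 to -0.50) and Sars, which charges serine, at -0.62 (-0.72 to -0.51), while Farsa stood at 0.41 (0.36 to 0.46).

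**Figure D3:**
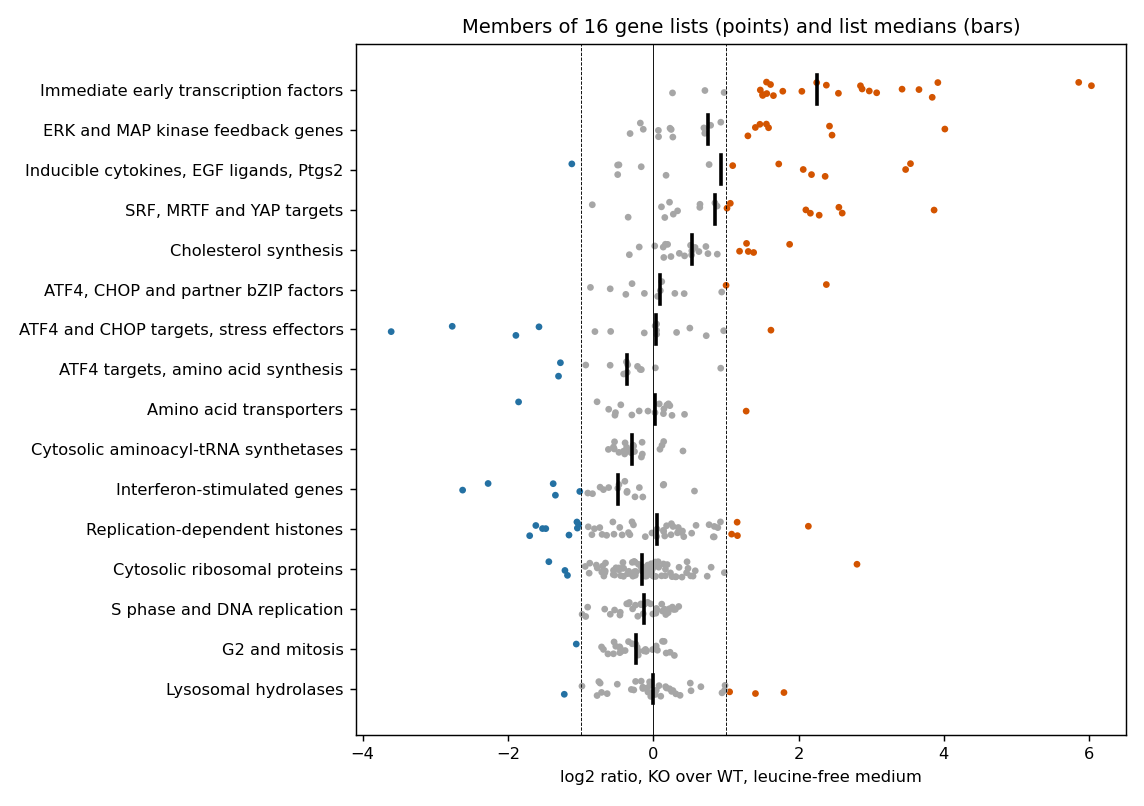
Log2 RNA ratio of KO over WT cells in leucine-free medium for the described members of 16 gene lists. Each point is a gene, orange where called higher, blue where called lower and grey where not called, black bars are list medians and dashed lines mark 2-fold. Immediate early factors centre on 2.25 and synthetases on -0.30, while the medians of histones, lysosomal hydrolases and amino acid transporters lie within 0.05 of 0.

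The lowest genes had few reads in KO leucine-free cells. Of the 15 lowest protein-coding genes, 14 were also called lower in replete medium and 4 lie on the X chromosome. Grb10 (ENSMUSG00000020176, chromosome 11, 11930508 to 12038683, minus strand, GRCm38) is an imprinted gene for an adaptor that damps insulin receptor signalling. It had 26 reads in KO and 5697 reads in WT leucine-free cells, and 42 and 5441 reads in KO and WT replete cells. Its leucine-free ratio was -7.38 (-8.02 to -6.85), so the KO level was 0.601% of WT, and its footprints numbered 1 in KO and 271 in WT cells. Gas7, a growth arrest gene on the same chromosome (67455437 to 67688990, plus strand), had 4 reads in KO and 2020 reads in WT leucine-free cells, and 6 and 2066 reads in KO and WT replete cells. Unlike Grb10, Gas7 had 259 footprints in KO and 206 in WT leucine-free cells, a footprint ratio of -0.51. Chst11, a chondroitin sulfotransferase, was likewise low in RNA, with 0 reads in KO and 76 in WT leucine-free cells, but not in footprints, with 2105 in KO and 851 in WT cells. The footprints of Gas7 and Chst11 in KO cells were thus far from 0, unlike their RNA. In WT leucine-free cells Chst11 likewise stood at 348 CPM in footprints but 1.88 CPM in RNA, so its mismatch was not confined to KO cells. The reason was not tested for either gene.

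Among the others, Xdh, xanthine dehydrogenase, had 2 reads in KO and 530 reads in WT leucine-free cells, and 0 and 439 reads in KO and WT replete cells. Both KO libraries thus lay far below both WT libraries. Hdgfl3 had 2 reads in KO and 457 reads in WT leucine-free cells, and 2900026A02Rik had 1 and 550. Tspan6, a tetraspanin, had 0 reads in KO and 83 in WT leucine-free cells, at least 21.4-fold lower in KO cells when 0 is taken as 3 reads. Gprin3 and Il1rapl1 had 0 reads in KO cells too, against 78 and 74 in WT leucine-free cells, at least 20.1-fold and 19.1-fold lower. With 0 reads the depth gives only these bounds. Dpt, a matrix protein, had 2 reads in KO and 152 in WT leucine-free cells, and AW551984 had 20 and 507. Sprr2k, a cornified envelope gene, had 7 reads in KO and 192 in WT leucine-free cells, and the receptor gene P2ry10b had 14 and 333. Dkk2, a Wnt antagonist, was the exception among the 15: it had 0 reads in KO and 70 reads in WT leucine-free cells, but 57 reads in each of the KO and WT replete libraries.

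A smaller set was read almost only in KO cells. Igsf11, an adhesion molecule, had 65 reads in KO and 0 in WT leucine-free cells, at least 28.0-fold higher, and 76 and 2 reads in KO and WT replete cells. Limch1, a regulator of myosin, had 94 reads in KO and 1 read in WT leucine-free cells, and 49 and 0 in KO and WT replete cells. Both genes were thus called higher in KO cells in either medium, from 1 library a group. Mtus1 had 157 reads in KO and 11 in WT leucine-free cells, and 253 and 6 in KO and WT replete cells. Cpn1, a carboxypeptidase subunit, had 136 reads in KO and 3 in WT leucine-free cells, and Pclo, a presynaptic scaffold, had 92 and 3. All 15 of the highest protein-coding genes were called higher in replete medium as well.

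The replete pair shows which differences were present with leucine too. The 2 ratios use 4 different libraries. Of the 555 protein-coding genes called higher without leucine, 279 were also called higher in replete medium, 50.3% of the first list and 59.7% of the 467 in the second. Of the 350 called lower, 142 were called lower in replete medium, 40.6% of the first list and 52.0% of the 273 in the second. In replete medium 4.32% of protein-coding genes were called higher and 2.52% lower, against 4.69% and 3.15% of all genes and 7.45% and 7.87% of genes of another class or of none. Calls in opposite directions numbered 7 and 2. Across the 10814 genes the ratios of both media had a Spearman rho of 0.62, which is a description, since genes of a library are not independent. Immediate early factors had a median of 0.92 in replete medium, with 11 of 25 called higher, against 2.25 without leucine.

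The leucine-free minus replete difference of the ratios has a Wald interval for counting error. On the higher side Btg2 had a difference of 3.62 (3.46 to 3.79) and Il11 one of 4.46 (3.14 to 5.78). Thrb, a thyroid hormone receptor, had 59 reads in KO and 42 in WT leucine-free cells, against 8 and 55 in KO and WT replete cells, a difference of 3.44 (2.25 to 4.62). On the lower side Chac1 had a difference of -2.71 (-3.12 to -2.31). Weakly read genes made up the rest: Eno1b had 8 reads in KO and 94 in WT leucine-free cells, against 48 and 27 in KO and WT replete cells. Glt28d2 had 5 and 65 reads without leucine, against 53 and 41 in replete medium, and Arhgap44 had 7 and 66, against 65 and 60. Ttc12, with 25 and 64 reads in KO and WT leucine-free cells and 109 and 35 in KO and WT replete cells, was not called without leucine.

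**Figure D4:**
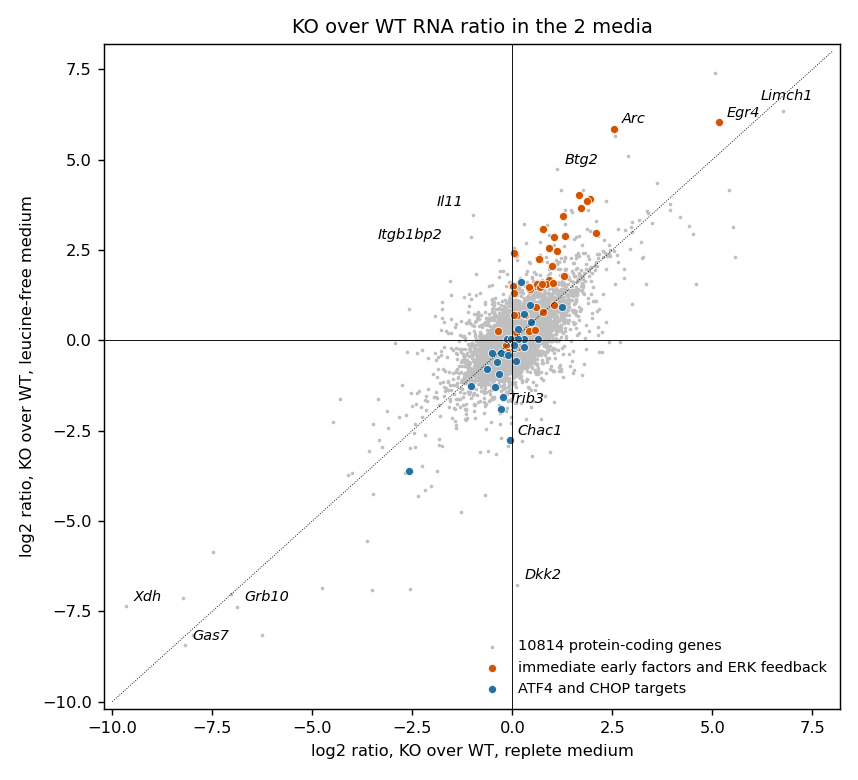
Log2 RNA ratio of KO over WT cells in leucine-free medium (vertical) against the same ratio in replete medium (horizontal) for 10814 protein-coding genes, with equal ratios on the dotted line. Immediate early and ERK feedback genes (orange) lie mostly above that line, Chac1 and Trib3 (blue) lie below it near a replete ratio of 0, and Grb10, Gas7 and Xdh lie far down in both media. Points of genes with 0 reads in a library, Dkk2, Xdh, Egr4 and Limch1 among them, depend on the prior count.

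Footprint libraries of KO and WT cells in leucine-free medium gave a second reading of the called genes. Of the 555 genes called higher in RNA, 220 had at least 60 footprints in the KO and WT leucine-free pair, and 209 of these (95%) had a footprint ratio above 0, with a median of 1.15, and 126 were called higher in footprints. Of the 350 called lower, 130 had as many, and 112 of these (86.2%) had a footprint ratio below 0, with a median of -0.59, and 40 were called lower in footprints. Of all 8545 protein-coding genes with as many footprints, 50.1% were above 0 and 49.9% below. The limit of 60 sums raw footprints of both libraries, so a gene could pass through the library where it was high. Egr4 did so with 98 footprints in KO and 0 in WT cells. With the larger KO library, genes high in KO cells passed more easily, so the shares of like sign are partly set by the limit. Over all 9489 genes with a mean footprint count of at least 30, 5.03% were called higher and 2.32% lower. Across 8545 protein-coding genes the RNA and footprint ratios had a Spearman rho of 0.41. Immediate early factors had a footprint median of 2.11, close to that of their RNA, with Btg2 at 4.79 and Fos at 3.46. Chac1 had 29 footprints in KO and 138 in WT cells, a ratio of -3.07. The median footprint ratio was -0.51 for both lists of ATF4 and CHOP targets and -0.56 for amino acid transporters.

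Some markers of cell identity were called in each medium. Without leucine 5.13% of all protein-coding genes were called higher and 3.24% lower, and in replete medium 4.32% and 2.52%. Of 13 described duct and epithelial genes, 3 were called higher in KO cells without leucine and none lower, and 3 were below 0. Of the 8 with a mean count of at least 100, 2 were called higher. In replete medium 4 of the 13 were called higher and none lower. The summed level of the 13 was 1872 CPM in KO and 1225 CPM in WT leucine-free cells, a difference that lay mostly in Sox9. Sox9, a duct transcription factor, had 744 CPM in KO and 189 CPM in WT leucine-free cells, a ratio of 1.98 (1.94 to 2.02), and stood at 0.92 in replete medium. The keratins Krt7 and Krt18 stood at 1.51 (1.05 to 2.01) and 1.41 (1.35 to 1.46). Of 15 described fibroblast and mesenchyme genes, Col1a1, Snai2 and S100a4 were called lower and Acta2 higher. S100a4 was at the limit, with an interval of -1.24 to -0.78, lies on chromosome 3, and lost the call under 4 of the alternative settings. Col1a1, a chain of type I collagen, had 186 reads in KO and 698 in WT leucine-free cells, a ratio of -1.54 (-1.78 to -1.30), and Snai2, the Slug factor, stood at -1.28 (-1.44 to -1.13). The summed level of the 15 was 3890 CPM in KO and 4593 CPM in WT leucine-free cells, but 3684 and 3736 CPM in KO and WT replete cells. In replete medium 1 of the 15 was called higher and 3 lower. Of 5 described neural genes, Map2 at 1.5 (1.39 to 1.62) and Nes at 1.28 (1.12 to 1.45) were called higher and 1 was called lower. In replete medium 4 of these 5 were called higher and none lower. Whether a shift in cell make-up has a part in the gene groups above was not tested.

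Matrix and adhesion genes held calls in both directions, beside 5.13% of all protein-coding genes called higher and 3.24% lower. Of 15 described collagen chains, Col18a1 at 1.40 (1.35 to 1.46) and Col12a1 were called higher, and both type I chains lower. Of 30 described matrix glycoproteins and enzymes, 4 were called higher and Bgn, the proteoglycan biglycan, was called lower at -1.91 (-2.26 to -1.60). Lox, which cross-links collagen, stood at 1.99 (1.83 to 2.16) and was near it in replete medium at 1.95. Of 13 described integrin subunits, 4 were called higher and none lower, with Itga3 the best read of them at 1.23. Only 1 of the 9 integrin subunits with a mean count of at least 100 was called higher.

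Interferon-stimulated genes were lower in KO cells with and without leucine. Of 21 described, 5 were called lower and none higher, beside 3.24% of all protein-coding genes called lower. With a mean count of at least 100, 2 of 12 were called lower. Of the 21, 18 were below 0, and the median was -0.49 without leucine and -0.54 in replete medium. Oasl2, an antiviral protein of the OAS family, had 13 reads in KO and 107 in WT leucine-free cells, and 20 and 102 in KO and WT replete cells. Both KO libraries of Oasl2 lay below both WT libraries. Rtp4 had 22 reads in KO and 140 in WT leucine-free cells, a ratio of -2.27 (-3.02 to -1.64). Ifih1, the RNA sensor MDA5, had 81 reads in KO and 273 in WT leucine-free cells, a ratio of -1.38 (-1.76 to -1.02).

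Further lists held few or no calls, beside 5.13% of all protein-coding genes called higher and 3.24% lower, and in short lists these shares amount to less than 1 gene. None of 34 S phase genes, 37 autophagy genes, 18 endoplasmic reticulum chaperones, 30 amino acid sensing genes upstream of mTORC1, 23 RAS, MYC and tumour suppressor genes, 9 antigen presentation genes or 7 mitochondrially encoded proteins was called. Of 30 G2 and mitosis genes Hmmr alone was called, at -1.06 (-1.14 to -0.98), and 23 of the 30 were below 0. Of 23 macropinocytosis and endosome genes Rab4a alone was called, at -1.73 (-2.44 to -1.12). Of 78 described cytosolic ribosomal protein genes, 1 was called higher and 3 lower, with a median of -0.15. Rps4x had 2320 reads in KO and 8117 in WT leucine-free cells, a ratio of -1.44 (-1.5 to -1.37), and Rpl29 had 424 and 78. Of 52 described replication-dependent histone genes, 4 were called higher and 8 lower, with a median of 0.05. Reads shared by near-identical copies were not counted, so single histone and ribosomal protein genes are uncertain. Lysosomal hydrolases had 3 called higher, the cathepsins Ctsh, Ctso and Ctsz, and Gla lower, out of 40. Glycolysis genes had 3 called higher and 2 lower out of 20, among them Slc2a1, the glucose transporter GLUT1, at 1.02 (0.96 to 1.07) and Pgk1 at -1.14 (-1.22 to -1.07). Of 23 p53 targets Btg2, Plk2 at 1.59 (1.54 to 1.65) and Pmaip1 at 1.22 (1.13 to 1.30) were called higher and none lower.

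The remaining lists also stand beside 5.13% of all protein-coding genes called higher and 3.24% lower. Among them, 1 of 19 NRF2 and glutathione genes was called, Osgin1, at 1.98. Of 15 cytosolic heat shock genes, Cryab was called higher and Hspb8 lower, which had 71 reads in KO and 463 in WT leucine-free cells. Of 23 described imprinted genes, 3 were called lower, Grb10 among them, and 1 higher. With a mean count of at least 100, 1 of 18 imprinted genes was called lower and none higher. Of 29 ligands, receptors and antagonists of the Wnt, BMP and TGF-beta pathways, 3 were called higher and 3 lower. Id3 at 1.06 (1.00 to 1.13) and Id4 at -1.29 (-1.60 to -0.99) were among them. With a mean count of at least 100, 2 of 26 members of this list were called higher and 1 lower.

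Lower RNA in KO cells was not spread evenly over the chromosomes. On the X chromosome the median ratio of 346 protein-coding genes was -0.47, which is 71.9% of WT, and 300 of them (86.7%) were below 0. Of these 346, 47 were called lower (13.6%) and 7 higher, against 3.24% and 5.13% of all protein-coding genes. Chromosome 3 had a median of -0.30 over 527 genes, with 77.6% below 0 and 6.83% called lower. The other autosomes had medians between -0.19 on chromosome 5 and 0.10 on chromosome 11. In replete medium the medians were -0.44 on the X and -0.25 on chromosome 3, and in footprints -0.63 and -0.24.

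In windows of 25 neighbouring protein-coding genes, all 13 windows of the X and all 21 of chromosome 3 had a median below 0. On chromosome 5 the last 19 of 26 windows, from 45493374 to 146837032 (GRCm38), had medians between -0.45 and -0.11, while the 7 before them had a median of 0.06. On chromosome 7 the first 16 of 31 windows, from 3289080 to 78847263, had medians between -0.51 and -0.06, while the 15 after them had a median of 0.03. The last 4 windows of chromosome 8, from 111094630 to 125034192, had medians between -0.33 and -0.13. In replete medium all 4 of these, 19 of the 19 on chromosome 5 and 15 of the 16 on chromosome 7 were below 0 as well. Of 12 listed Y-linked and X-inactivation genes 5 were described and none was called. Xist, the RNA that marks an inactive X, was read in all 4 RNA-seq libraries, with 459 CPM in KO and 320 CPM in WT leucine-free cells. Tspan6, Il1rapl1, P2ry10b, Rps4x, Pgk1, Gla and Bgn are X-linked, and Cth, Dkk2, Sars, S100a4, Spry1, Sprr2k and Glt28d2 lie on chromosome 3. Btc, Psph, Oasl2, Hspb8 and 2900026A02Rik lie in the stretch of chromosome 5, and Slc7a5 and Rab4a in that of chromosome 8. For those genes a difference of their own and the shift of the chromosome cannot be told apart where the ratio is small.

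**Figure D5:**
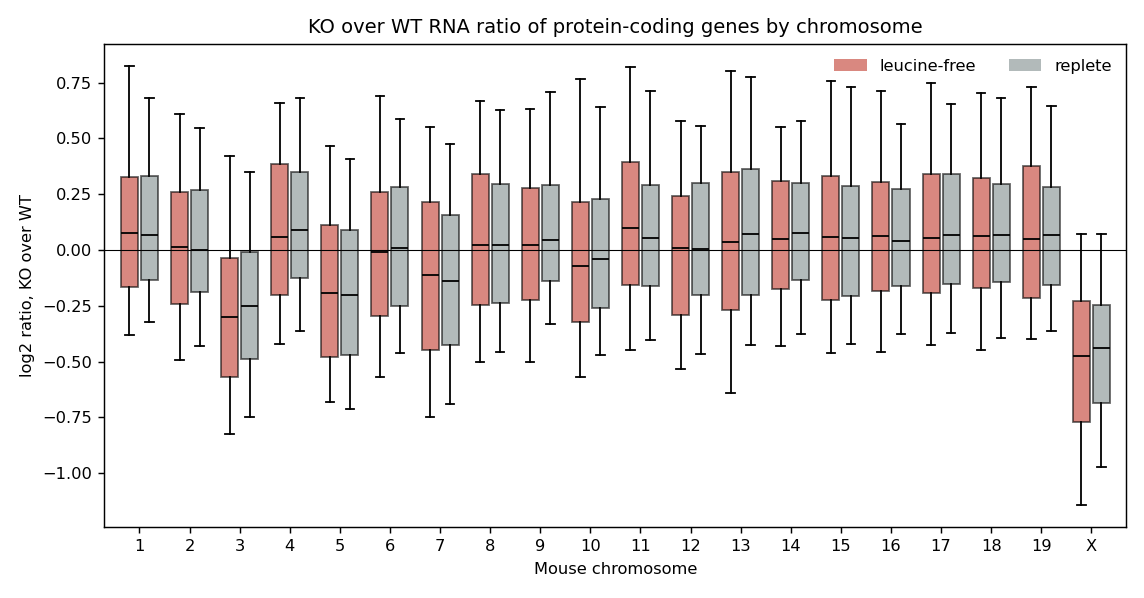
Log2 RNA ratio of KO over WT cells for protein-coding genes of each mouse chromosome, in leucine-free (red) and replete (grey) medium. Boxes span the middle 50% of genes with the median as a line, and whiskers the 10th to 90th percentiles. The X, with a leucine-free median of -0.47, and chromosome 3, with -0.30, lie lowest in both media.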

How the data were processed

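RNA-seq and ribosome footprint libraries of KRPC-A cells were used as raw gene counts, as deposited. The authors counted exonic reads over the GRCm38 gene models of Ensembl release 96 with featureCounts 1.6.4, per the file headers, and the recorded call sets neither strand nor a treatment of multiply mapped or overlapping reads. Reads of overlapping and antisense genes, such as Jun and Junos or Ptgs2 and Ptgs2os, therefore cannot be told apart or are lost. The submitters' processing notes also name cutadapt, STAR and Subread, without versions. Per the labels' protocols, the RNA-seq libraries followed standard Illumina protocols, while the sources used here state neither strandedness nor polyA selection.

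Of 55536 Ensembl identifiers, 55450 were given a symbol, and gene class came by symbol from the RefSeq table of GRCm38.p6. Counts were scaled within RNA-seq by TMM factors over protein-coding genes (edgeR 4.0.16, R 4.3.3), which ran from 0.991 to 1.01 in the RNA-seq libraries. Ratios are log2 with a prior count of 0.5. Intervals are exact Clopper-Pearson conditional binomial for ratios, exact Poisson for CPM and Wald for differences of ratios, all at 95% and for counting error only. No molecular identifiers were used in counting, so reads are not single molecules. A library with 0 reads was set at 3 for bounds. Calls needed a 2-fold ratio and an interval without 0. Python 3.11.15, numpy 2.4.6, pandas 2.3.3, scipy 1.17.1 and matplotlib 3.10.9 were used. The calling step was tested on simulated data.

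The genes named were Eif2ak4, the 15 highest and 15 lowest called protein-coding genes by the interval end nearest 0, up to 4 members per list by the same measure plus called members against their list's median, the 6 in each direction with the largest difference between media, and Atf4, Ddit3, Fos and Asns. Further list members were named after their values were seen, to account for a list. The comparison, the 42 gene lists and the members were chosen with earlier results of these data known. Alternatives were other scaling factors (DESeq2 1.42.0 among them), other limits on low counts, another prior count, protein-coding genes only, a correction for length, and removal of chromosome medians. Some named genes are not reported here.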

Additional observations from a re-analysis of the deposited data

Results flagged for a closer look

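Itgb1bp2, an X-linked muscle integrin-binding protein gene, was called in opposite directions in the media. It had 47 reads in KO and 8 in WT leucine-free cells, but 28 and 63 in KO and WT replete cells. Its log2 ratio of KO over WT was 2.85 (1.83 to 4.22) without leucine and -1.03 with it, a difference of 3.88. It had 0 footprints in both leucine-free libraries. Zfp607b, a zinc finger gene on chromosome 7, had 81 reads in KO and 33 in WT leucine-free cells, but 33 and 107 in KO and WT replete cells. Its ratios were 1.65 (1.06 to 2.30) and -1.56, a difference of 3.21. With 1 library per group neither difference was tested over cultures, and both rest on few reads.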

How the results depend on the processing

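The number of genes called depended on the limit on low counts. With a mean count of at least 10, 1436 genes were called higher and 957 lower. With at least 1 the numbers were 2402 and 1639, and with at least 100 they were 417 and 235, against 802 and 496. The other settings gave 555 to 828 genes called higher and 350 to 520 lower, the lowest of each with protein-coding genes only. No named gene or count reversed its direction, and no scaling moved the median of all genes by 0.1. Of 121 named genes called, 8 lost the call when the median of their chromosome was removed, a setting chosen after seeing the data, among them Btc, Rps4x, Rpl22l1, Pgk1, Slc2a1, Gla and S100a4. With a prior count of 5, 4 lost it, Hist1h3d and S100a4 among them, with the length trend removed Hmmr and S100a4, with TMM over all genes Slc2a1, and without TMM S100a4. List medians that changed sign were within 0.15 of 0, save the X-inactivation and Y list, at -0.39 and, with chromosome medians removed, 0.09. No paired analysis was possible because each group has 1 library. Culture, clone and library effects cannot be told apart from genotype, and depth limits calls for genes with few reads.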

Other observations

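Genes outside the protein-coding class were compared with protein-coding genes of like read depth. At a mean count of 30 to 100, 19.2% of them and 21.9% of protein-coding genes were called higher, and 13.3% and 14.6% lower. At 100 to 1000, 14.1% of them and 6.31% of protein-coding genes were called higher, and 4.91% and 4.56% lower. By class, 14.1% of 397 lncRNA genes were called higher and 8.82% lower, and 7.14% of 126 pseudogenes were called higher and 22.2% lower. Over all genes described the shares were 6.55% and 4.05%. The median mean count was 77.5 for lncRNA genes and 60.25 for pseudogenes, within the range of 30 to 100 where calls were frequent among protein-coding genes too. Single genes here were picked after their values were seen. Gm37352 had 3799 reads in KO and 783 in WT leucine-free cells, and 1007 and 1206 in KO and WT replete cells. Gm15564 had 9348 reads in KO and 41064 in WT leucine-free cells, and 19379 and 23188 in KO and WT replete cells. Mir23a, counted from long RNA-seq reads over its locus, had 476 reads in KO and 84 in WT leucine-free cells, and 110 and 100 in KO and WT replete cells. Junos, which runs antisense to Jun, stood at 1.71 (1.29 to 2.16) and Ptgs2os, antisense to Ptgs2, at 1.58 (1.31 to 1.85), and without strand their reads cannot be told apart from those of Jun and Ptgs2.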
